A study of Mus musculus with 6 samples.

Results

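The genes described here are 26 genes of cholesterol synthesis and of its control by the transcription factor SREBP2. They were taken as the rows of the raw count file whose Ensembl mouse identifier maps to a fixed list of symbols, and all 26 were found among 45706 gene identifiers. The samples were 6 bulk RNA-seq libraries of mouse bone marrow cultures. Control medium was given to 2 of them (replicates 1 and 2), and 4 received medium conditioned by clear cell renal cell carcinoma (ccRCC) cells of the VpR lines VpR83, VpR99, VpR126 and VpR2020. A line is represented by a single library, and the 4 lines are the replicates of their group. The labels used here state no strain, age, allele or culture time and do not say that the libraries came from separate animals. The p-values therefore cover only the scatter among these 6 libraries, which may be technical. Whereas the labels name control medium, the design text gives marrow just taken from the animal as the comparator, so that time in culture and the medium cannot be told apart.

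Cholesterol is built from acetyl-CoA by way of mevalonate, the isoprenoid diphosphates, squalene and lanosterol. The genes of these enzymes are classic targets of SREBP2, a factor that is made as a membrane protein of the endoplasmic reticulum. SCAP escorts it to the Golgi for cleavage when sterols are scarce, and the INSIG proteins hold SCAP back when sterols are plentiful. Macrophages also receive cholesterol from lipoproteins and engulfed cells, and NPC1 exports it from their lysosomes.

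The library of VpR99 held 129120559 counts and the other 5 held 18629708 to 28055913 each. Marker lists differed strongly between the groups. The summed level of 12 macrophage markers was 884 and 886 CPM (counts-per-million, on TMM-scaled library sizes) in the controls and 9368 to 17860 CPM in conditioned medium, and all 12 were called higher. Of 10 neutrophil markers, at 90040 and 82480 CPM in the controls and 2848 to 15060 CPM in conditioned medium, 8 were called lower, and all 10 erythroid markers were called lower (2941 and 1662 against 0.373 to 0.887 CPM, with Slc4a1, Rhag, Kel and Car1 at 0 counts in each conditioned library). Lower calls were also made for 6 of 8 B cell and all 7 T and NK cell markers. Without control replicate 1 or 2, fewer neutrophil, B cell and T and NK cell markers were called lower, as over all genes tested. Without replicate 1 and without replicate 2 their median log2 fold changes were -3.35 and -3.51, -2.73 and -2.66, and -4.77 and -4.56. Of 7 epithelial markers, looked at for carried-over tumour cells, 4 could be tested and had log2 fold changes of -4.63 to -0.92, with 2 called lower, and Krt8 and Krt19 had 0 counts in each conditioned library. The 4 monocyte markers had log2 fold changes of -1.47 to 1.52 and summed to 1869 and 1848 CPM in the controls and 1785 to 3776 CPM in conditioned medium. The 12 cell cycle genes summed to 3630 and 3244 CPM in the controls and 2438, 2928, 942 and 1182 CPM under VpR83, VpR99, VpR126 and VpR2020. No monocyte marker or cell cycle gene was called with all 6 libraries in the main fit. Some of the alternative runs described below called 2 to 5 of the cell cycle genes lower. Some also called 1 or 2 monocyte markers higher or 1 lower. In bulk RNA a changed number of cells of a type and a changed amount of RNA per cell cannot be told apart, and the part of the cell mixture in the results below was not tested.

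Most of the 26 genes were higher under conditioned medium. All 26 passed the filter on low counts. In edgeR's quasi-likelihood fit, with p-values adjusted by Benjamini-Hochberg over 15141 genes, 22 were called higher (adjusted p below 0.05), 1 lower (Scap) and 3 were not called (Pmvk, Ebp and Lpin1). Over all genes tested, 22.5% were called higher and 19.7% lower. Higher genes made up 53.3% of all calls, 40% when libraries were scaled by their upper quartile and 38.6% by their totals, which moved the median of all genes to -0.22 and -0.26. The median log2 fold change of the 26 genes was 1.83, against -0.01 over all genes tested. The fitted log2 difference was above 1 in 20 of the called genes, above 2 in 11 and above 3 in 3 (Lss, Cyp51 and Npc1). In 24 of the 26 every conditioned library lay above both controls, which held for 32.0% of all genes tested. The exceptions were Ebp, whose groups overlapped, and Scap, which lay below. Together the 26 genes held 0.0699% and 0.0762% of the counts in the controls and 0.195% to 0.318% in conditioned medium. Without control replicate 1 or 2, fewer of the 26 were called higher, as over all genes tested, and Scap was not called. The median log2 fold change of the 26 was 1.87 without replicate 1 and 1.89 without replicate 2. In those fits the remaining control is taken to scatter as the conditioned libraries do.

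**Figure D1:**
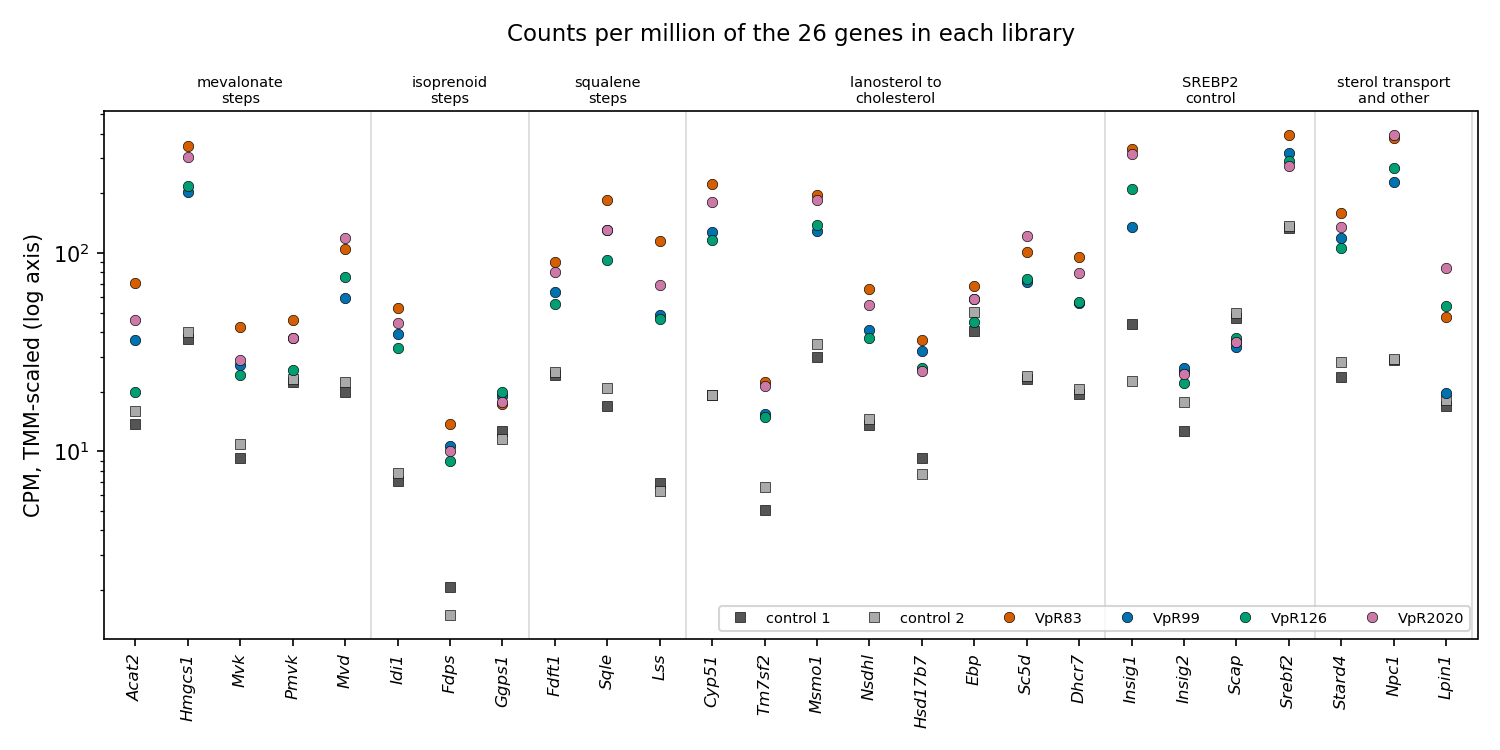
TMM-scaled CPM (log axis) of each of the 26 genes, ordered along the pathway, with 1 point per library (squares for the 2 controls, circles for the 4 conditioned media). The circles lie above both squares for 24 genes, overlap them for Ebp and lie below them for Scap.

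The promoters of these genes are shown because most of the genes moved together. RefSeq promoter windows of GRCm38.p6, 300 bases long with 250 before the start site, matched 21 of the 26 by symbol, and Fdps, Fdft1, Sqle, Stard4 and Npc1 had none in the table used. Each window was searched on both strands for 3 motifs: TCACNCCA, which is the core of the sterol regulatory element bound by SREBP, CCAAT (read as ATTGG on the other strand), the box bound by NF-Y, and GGGCGG, the box bound by Sp1. CCAAT can share letters with either of the other motifs where they abut. CCAAT was present in 18 of the 21 genes (85.7%), against 42.5% of 10685 tested genes with a window, and 11 of them had 2 or more in one window. GGGCGG was also present in 18 of 21 (85.7%, against 65.8% of tested genes with a window). TCACNCCA was present in 3 of 21 (14.3%, against 4.6%), which were Hmgcs1, Msmo1 and Srebf2. Counted by single windows, CCAAT was in 66.7% of the 27 windows of these genes, 37.5% of windows of tested genes and 37.4% of all 32851 windows. For GGGCGG these shares were 77.8%, 59.5% and 35.7%, and for TCACNCCA 11.1%, 3.89% and 4.36%. Acat2, Scap and Lpin1 had no CCAAT in their windows. Only exact matches within these 300 bases were counted, so that an element with other letters or outside the window would be missed. A match is a description of letters, and no binding was measured here.

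The 3 promoters with TCACNCCA, that of Mvk with 5 CCAAT boxes, and the first of 2 windows of Scap, the gene that was lower and whose stretch holds neither motif, are printed 5′ to 3′ as the 250 bases before the start site, with TCACNCCA and CCAAT matches of either strand in capitals.
Hmgcs1 (chr13:119690101-119690350, plus strand): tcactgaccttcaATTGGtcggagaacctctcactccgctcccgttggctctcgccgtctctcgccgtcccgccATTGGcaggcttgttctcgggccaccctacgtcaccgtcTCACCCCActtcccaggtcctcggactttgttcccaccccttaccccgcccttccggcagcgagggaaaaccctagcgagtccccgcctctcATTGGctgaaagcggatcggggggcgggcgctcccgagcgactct
Msmo1 (chr8:64733579-64733828, minus strand): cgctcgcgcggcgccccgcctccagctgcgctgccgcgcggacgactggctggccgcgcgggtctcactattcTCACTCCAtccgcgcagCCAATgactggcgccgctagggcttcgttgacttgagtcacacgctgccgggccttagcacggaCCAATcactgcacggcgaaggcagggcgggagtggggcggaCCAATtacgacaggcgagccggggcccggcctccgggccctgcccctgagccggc
Srebf2 (chr15:82147019-82147268, plus strand): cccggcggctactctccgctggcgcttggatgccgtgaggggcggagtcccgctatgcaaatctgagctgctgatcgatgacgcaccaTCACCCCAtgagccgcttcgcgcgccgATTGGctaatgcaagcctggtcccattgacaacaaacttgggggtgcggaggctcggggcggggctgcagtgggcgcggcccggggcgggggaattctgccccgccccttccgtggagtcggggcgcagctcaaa
Mvk (chr5:114444019-114444268, plus strand): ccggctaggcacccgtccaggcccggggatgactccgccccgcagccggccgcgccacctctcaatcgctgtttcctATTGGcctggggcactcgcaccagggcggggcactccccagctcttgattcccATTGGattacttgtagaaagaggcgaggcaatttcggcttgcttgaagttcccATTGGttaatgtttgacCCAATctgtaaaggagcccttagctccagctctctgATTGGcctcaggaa
Scap (chr9:110333038-110333287, plus strand): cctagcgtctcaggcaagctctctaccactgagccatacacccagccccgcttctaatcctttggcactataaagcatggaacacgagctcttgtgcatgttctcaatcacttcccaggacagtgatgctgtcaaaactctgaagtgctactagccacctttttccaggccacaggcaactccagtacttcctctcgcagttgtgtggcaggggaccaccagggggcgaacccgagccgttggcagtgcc
Counted back from the start site, with -1 as the last base before it, TCACNCCA began at -137 in Hmgcs1, at -177 in Msmo1 and at -162 in Srebf2, each on the strand of the gene. A CCAAT box followed it after 84 bases in Hmgcs1, 9 in Msmo1 and 19 in Srebf2. The fourth CCAAT match of Hmgcs1 lies past the start site and is not printed. Start sites here are those of RefSeq. The annotation used for gene coordinates starts Msmo1 (at 64733792, minus strand) and Srebf2 (at 82147181, plus strand) further upstream. Part of their printed stretches therefore lies within the annotated genes, and in Msmo1 this part holds the TCACNCCA match.

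The first steps, from acetyl-CoA to mevalonate and its decarboxylation, rose in 4 of the 5 genes listed. In what follows the conditioned values of a gene are given in the order VpR83, VpR99, VpR126 and VpR2020. Hmgcs1 (chromosome 13, 119690379 to 119708260, GRCm38), which condenses acetoacetyl-CoA with acetyl-CoA in the cytosol, had 36.7 and 40.2 CPM in the controls and 347, 204, 219 and 305 CPM in conditioned medium. The groups were far apart, and the gene rose 6.98-fold (log2 fold change 2.80 ± 0.29, with the SE taken from the quasi-likelihood F, adjusted p = 0.0012). Mvd, the decarboxylase that makes isopentenyl diphosphate, had 19.8 and 22.4 CPM in the controls and 105, 59.6, 75.4 and 119 CPM in conditioned medium (2.09 ± 0.32, adjusted p = 0.0041). VpR99 gave its lowest conditioned value and VpR2020 its highest, all above both controls. Mvk, the kinase that first phosphorylates mevalonate, rose from 9.23 and 10.9 to 42.5, 27.2, 24.2 and 29.04 CPM (1.61 ± 0.28, adjusted p = 0.0056). Acat2, the cytosolic thiolase that makes acetoacetyl-CoA, had 13.8 and 15.98 CPM in the controls and 70.4, 36.5, 20.02 and 45.9 CPM in conditioned medium (1.54 ± 0.49, adjusted p = 0.044). Its conditioned values spread widely, with VpR126 only slightly above the controls. Pmvk, the kinase of the next step after Mvk, was not called (22.3 and 23.1 against 45.98, 37.2, 25.9 and 37.1 CPM, 0.69 ± 0.24, adjusted p = 0.059), although each conditioned library lay above both controls.

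Calls in this first group depended in part on single libraries. Without control replicate 1, Mvk and Mvd were not called (adjusted p = 0.064 and 0.050, ranges over the alternatives 2.3e-06 to 0.064 and 3.3e-08 to 0.05). Acat2 was not called without either control (adjusted p = 0.21 and 0.16), without VpR83, VpR99 or VpR2020 (0.055, 0.058 and 0.082), by voom (0.073), without a low-count filter (0.065), or with upper-quartile or library-total scaling (0.063 and 0.073; range 0.0056 to 0.21). Pmvk was called higher by DESeq2 (adjusted p = 0.04) and without VpR126 (0.011, range 0.011 to 0.24).

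All 3 isoprenoid enzymes were called higher, with unlike fold changes. Idi1, which isomerizes isopentenyl diphosphate, had 7.13 and 7.75 CPM in the controls and 53.1, 38.97, 33.2 and 44.3 CPM in conditioned medium, a rise of 5.70-fold (2.51 ± 0.24, adjusted p = 0.0011). Fdps, which makes farnesyl diphosphate, had 2.07 and 1.504 CPM in the controls and 13.8, 10.6, 8.91 and 10.1 CPM in conditioned medium (2.60 ± 0.31, adjusted p = 0.0017). In both genes the groups lay far apart, with VpR83 highest and VpR126 lowest of the conditioned libraries. Ggps1, which makes geranylgeranyl diphosphate for protein prenylation and so leaves the sterol route, had 12.6 and 11.6 CPM in the controls and 17.3, 19.01, 19.9 and 17.8 CPM in conditioned medium. Its conditioned values lay close together and just above the controls (0.61 ± 0.16, adjusted p = 0.023), and no test of the difference between Ggps1 and the other enzymes was made. The call of Ggps1 was lost without either control (adjusted p = 0.11 and 0.15), without a low-count filter (0.057) and with upper-quartile or library-total scaling (0.075 and 0.096, range 0.0016 to 0.15). Values of Fdps are uncertain: 6 annotated pseudogenes match its transcript at 88.5% to 98.9% identity, and reads may be lost or split between them by the counting. The same holds in part for Idi1, with 5 such pseudogenes over 22.4% to 22.6% of its transcript, and for Ggps1, Fdft1 and Sc5d, with 1 each. With the counts of the pseudogenes added, the log2 fold change of Fdps was 2.48 (adjusted p = 0.0019).

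All 3 enzymes from farnesyl diphosphate to lanosterol rose. Lss, the cyclase that makes lanosterol (chromosome 10, 76531588 to 76557138), had 6.96 and 6.297 CPM in the controls and 115, 48.7, 46.7 and 69.3 CPM in conditioned medium. This was a 10.5-fold rise (3.40 ± 0.47, adjusted p = 0.0029), with VpR83 highest and the other media at lower levels. Sqle, the squalene epoxidase and a slow step of the pathway, had 16.96 and 20.8 CPM in the controls and 184, 131, 91.96 and 131 CPM in conditioned medium (7.13-fold, 2.83 ± 0.32, adjusted p = 0.0015). Fdft1, the squalene synthase that commits farnesyl diphosphate to sterols, had 24.3 and 25.2 CPM in the controls and 90.1, 63.9, 55.7 and 80.05 CPM in conditioned medium (1.55 ± 0.23, adjusted p = 0.0036). The 3 calls held under each alternative run. Fdft1 shares 774 bases of exon (18.3% of its exon length) with Ctsb, a cathepsin gene on the opposite strand, which had 574 and 580 CPM in the controls and 10482 to 16911 CPM in conditioned medium. The library kit keeps strand, but no source used here gives the strand setting of the counting, and the part of Ctsb reads in the Fdft1 counts was not tested. Fdps shares 1124 bases of exon (26.7%) with Gm43738 on the same strand, a gene with 0 counts in each library, and Scap 985 bases (13.2%) with 5830462I19Rik on the opposite strand, at 0.188 CPM or less in each. Other exon overlaps exist for Tm7sf2 with Vps51 on the same strand (532 bases, 34.5 to 44.6 CPM and not called), and for Npc1 with Rmc1 (511 bases), Ggps1 with Arid4b (257 bases) and Cyp51 with Akap9 (166 bases) on the opposite strand. Of these partners, Akap9 was called higher (log2 fold change 1.14) and Rmc1 lower (-0.46). Hmgcs1 shares 557 bases of exon (12.1%) with Gm48342 on the opposite strand. Further opposite-strand overlaps are those of Lss with 4930483K19Rik (381 bases), Idi1 with Gm48574 (323 bases) and Npc1 with Gm15956 (90 bases).

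From lanosterol to cholesterol, 7 of the 8 enzymes listed rose. Cyp51, the lanosterol demethylase, had 19.4 and 19.3 CPM in the controls and 223, 128, 116 and 180.5 CPM in conditioned medium (8.38-fold, 3.07 ± 0.33, adjusted p = 0.0014). The controls were almost equal and the lowest conditioned value, under VpR126, was several times theirs. Msmo1, the C4 methyl oxidase, had 29.8 and 35.01 CPM in the controls and 196, 129, 139 and 184 CPM in conditioned medium (2.32 ± 0.24, adjusted p = 0.0013). Its partners in removing the C4 methyl groups, the dehydrogenase Nsdhl and the reductase Hsd17b7, rose by 1.82 ± 0.28 and 1.82 ± 0.23 (log2, adjusted p = 0.004 and 0.002). Nsdhl had 13.7 and 14.6 CPM in the controls and 37.1 to 66.2 CPM in conditioned medium. Hsd17b7 had 9.298 and 7.71 CPM in the controls and 36.4, 32.1, 26.4 and 25.3 CPM in conditioned medium, with VpR83 and VpR99 highest. Sc5d, the desaturase that makes 7-dehydrocholesterol, had 23.2 and 23.9 CPM in the controls and 102, 71.3, 73.7 and 121 CPM in conditioned medium (1.97 ± 0.27, adjusted p = 0.0028). Dhcr7, the reductase that acts on that product, had 19.5 and 20.7 CPM in the controls and 95.5, 56.3, 56.5 and 79.5 CPM in conditioned medium (1.84 ± 0.28, adjusted p = 0.0036). For both genes VpR83 and VpR2020 gave the higher values and the groups lay apart. Tm7sf2, a sterol C14 reductase, had 5.07 and 6.63 CPM in the controls and 22.5, 15.4, 14.9 and 21.3 CPM in conditioned medium (1.66 ± 0.27, adjusted p = 0.0049), and was not called without control replicate 1 (adjusted p = 0.057, range 8.1e-07 to 0.057). Ebp, the sterol isomerase, was the exception, with 40.6 and 50.4 CPM in the controls and 68.5, 58.95, 45.1 and 58.8 CPM in conditioned medium. VpR126 lay between its controls, and Ebp was not called (0.35 ± 0.20, adjusted p = 0.2, and 0.059 to 0.72 over the alternatives).

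**Figure D2:**
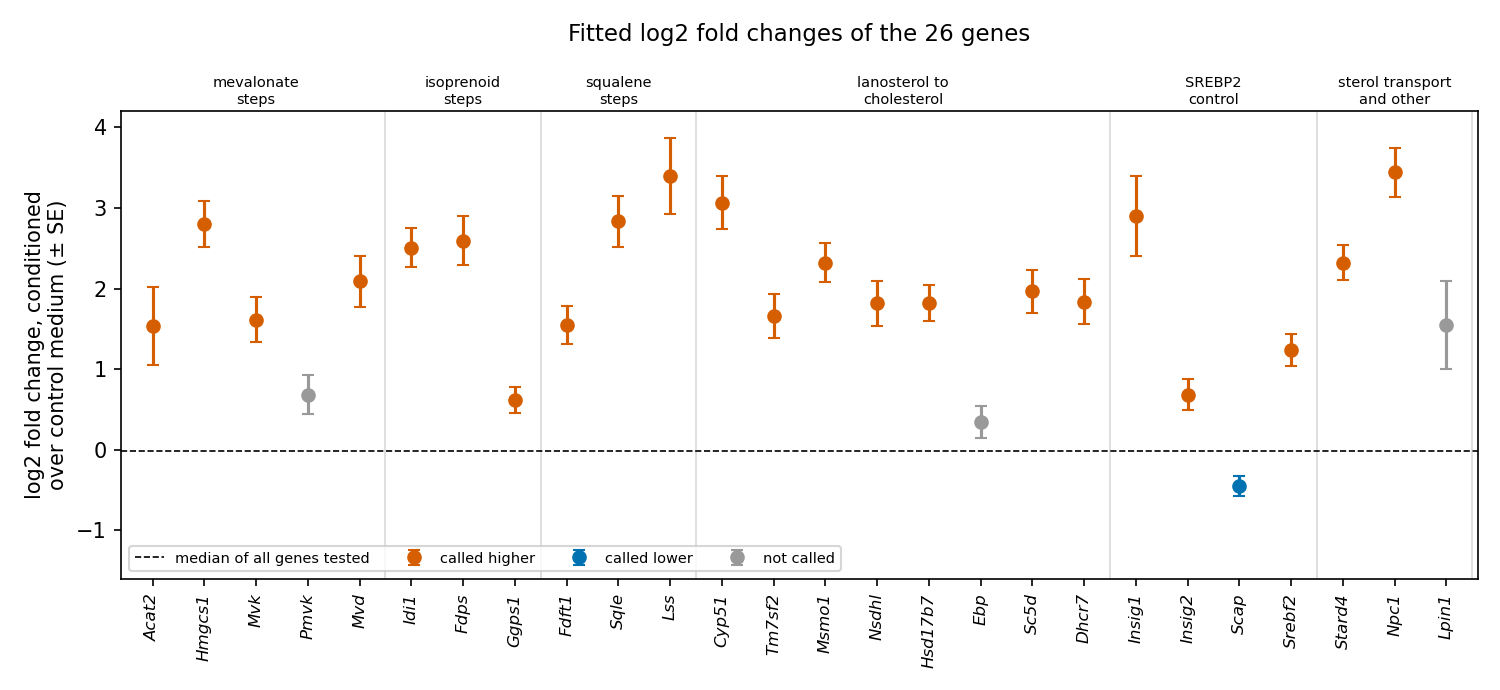
Fitted log2 fold change of conditioned over control medium for each of the 26 genes, ± SE (points and bars), with the dashed line at -0.01, the median of all 15141 genes tested. Of the points, 22 are called higher, Scap is called lower and Pmvk, Ebp and Lpin1 are not called.

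Of the 4 genes that control the pathway, 3 rose and 1 fell. Srebf2 itself (chromosome 15, 82147181 to 82205379), which encodes SREBP2, had 134 and 137 CPM in the controls and 392, 320.4, 292 and 273 CPM in conditioned medium, a 2.36-fold rise (1.24 ± 0.19, adjusted p = 0.0041). Its controls agreed closely and each conditioned library was above them. Insig1 (chromosome 5, 28071363 to 28078662), the sterol-regulated INSIG gene, had 43.8 and 22.6 CPM in the controls, which differed from each other, and 334, 136, 211 and 314 CPM in conditioned medium. All conditioned values exceeded the higher control, by most under VpR83 and VpR2020, and the gene rose 7.49-fold (2.90 ± 0.50, adjusted p = 0.0058). Insig2, its relative that is not known as a strong SREBP target, had 12.7 and 17.9 CPM in the controls and 25.1, 26.2, 22.3 and 24.6 CPM in conditioned medium (0.68 ± 0.19, adjusted p = 0.029). The ratio of Insig1 to Insig2, each per exon length, was 3.86 and 1.42 in the controls and 14.9, 5.81, 10.6 and 14.3 in conditioned medium. The lowest conditioned ratio, under VpR99, was still above both controls. Scap (chromosome 9, 110333288 to 110384950), the escort of SREBP2, was lower in all conditioned libraries, with 47.1 and 50.1 CPM in the controls and 35.6, 33.6, 37.4 and 35.5 CPM in conditioned medium (-0.45 ± 0.13, adjusted p = 0.028). The conditioned values of Scap lay within a narrow range.

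Each of the 4 control genes lost its call under at least 1 alternative. Srebf2 was not called without control replicate 1 (adjusted p = 0.053, range 1.3e-07 to 0.053) and Insig1 not without control replicate 2 (0.052, range 5.9e-09 to 0.052). Without either control (adjusted p = 0.21 and 0.051), without VpR83 or VpR2020 (0.065 and 0.058) or with upper-quartile or library-total scaling (0.085 and 0.13), Insig2 was not called (range 0.0074 to 0.21). Scap was not called without either control (adjusted p = 0.13 and 0.20), without VpR83 or VpR2020 (0.075 and 0.067) or without a low-count filter (0.14, range 0.0039 to 0.2).

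Of the remaining genes, 2 that move sterol within the cell rose. Npc1, which exports cholesterol from lysosomes, had 29.1 and 29.3 CPM in the controls and 379, 228, 268 and 392 CPM in conditioned medium. Its controls were almost equal, and it rose 10.9-fold (3.44 ± 0.30, adjusted p = 0.00084), which differs from the value of Lss by less than their SEs. Stard4, a cytosolic sterol carrier, had 23.7 and 28.2 CPM in the controls and 159, 119, 106 and 135 CPM in conditioned medium (2.32 ± 0.22, adjusted p = 0.001). Lpin1, a phosphatidate phosphatase of lipid synthesis that is also known as an SREBP target, had 16.9 and 18.1 CPM in the controls and 47.8, 19.7, 53.9 and 84.03 CPM in conditioned medium. VpR99 was close to the controls while VpR2020 was several times above, and Lpin1 was not called (1.55 ± 0.54, adjusted p = 0.059). It was called higher without VpR99 (adjusted p = 0.0064) and by DESeq2 (0.01, range 0.0064 to 0.23).

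The conditioned media ranked alike in many of the 26 genes, an order that may not be particular to them. The median over the 26 genes of log2 CPM minus the mean of the controls was 2.23 under VpR83, 2.12 under VpR2020, 1.63 under VpR126 and 1.52 under VpR99. The same median over all genes tested lay between -0.06 and -0.01 in the 4 libraries. VpR83 gave the highest value in 19 of the 26 genes, while VpR126 gave the lowest in 14 and VpR99 in 9. In 16 genes, among them Hmgcs1, Lss, Cyp51, Insig1 and Npc1, both VpR83 and VpR2020 lay above both VpR99 and VpR126. With 1 library per line these differences have no replicate check and were not tested. The shares of all genes tested with these orders were not counted. Over all genes, VpR83 and VpR2020 also differed least of the conditioned pairs. The chi-square of their counts per degree of freedom, which rises with library size, was 67, against 114 to 413 for the other pairs. The spread between lines was smallest for Scap, Ggps1 and Insig2, whose highest conditioned value was 1.11, 1.15 and 1.18 times the lowest. It was widest for Lpin1 and Acat2, at 4.27 and 3.52 times, and under 2 times in 21 of the 26 genes. Acat2 differed from the controls by 2.24 log2 units under VpR83 and 0.43 under VpR126, and Lpin1 by 2.26 under VpR2020 and 0.17 under VpR99. The summed level of the macrophage markers did not have this order of media, at 12410, 9368, 17860 and 14550 CPM, with VpR126 highest. Single markers differed in their order: VpR126 was highest for Csf1r, VpR83 for Cd68 and VpR2020 for Trem2. The part of macrophage content in the ranking of the media was not tested.

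**Figure D3:**
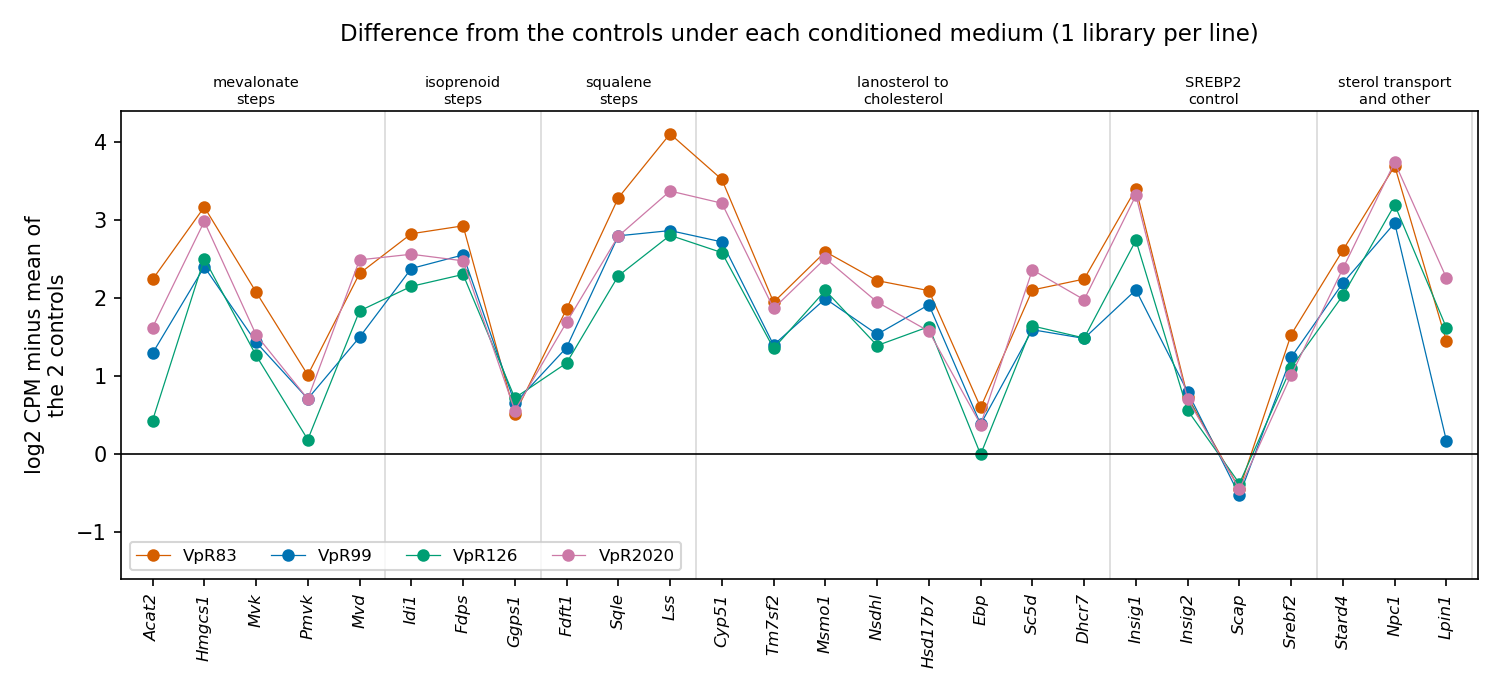
Difference of log2 CPM from the mean of the 2 controls (y axis) for each of the 26 genes under each conditioned medium, 1 library per line; thin lines join the points of a library and carry no data. VpR83 is the highest in 19 genes, and the points of Ggps1, Insig2 and Scap nearly coincide.

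Levels of different genes were compared only per length, as CPM per kilobase of merged exons. In the controls Ebp, at 19.7 ± 3.02 CPM per kilobase (mean ± SD, n = 2), and Srebf2, at 18.9 ± 0.287, stood highest and did not differ beyond their spread, followed by Pmvk at 13.3 ± 0.327. In conditioned medium Insig1 led with 80.4 ± 29.97 (mean ± SD, n = 4), then Hmgcs1 with 58.5 ± 14.9, Mvd with 48.3 ± 14.6 and Srebf2 with 44.5 ± 7.27, and these levels overlap within their SDs. Ebp and Pmvk, not called and among the 3 highest in the controls, reached 25.03 ± 4.17 and 21.3 ± 4.82 in conditioned medium, near the 24.3 ± 6.83 of Sqle and the 26.4 ± 5.39 of Msmo1. The lowest levels were those of Fdps (0.424 ± 0.095 and 2.58 ± 0.493), whose reads may be lost to its pseudogenes or to the overlapping Gm43738, and of Lss in the controls (0.615 ± 0.044). Lss reached 6.49 ± 2.95 in conditioned medium and thus stayed below most other enzyme genes in spite of its large fold. Counted over the longest transcript instead, 15 of the 26 conditioned levels moved by more than their SD, and Npc1 and Msmo1 then stood among the 5 highest in place of Mvd and Cyp51.

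**Figure D4:**
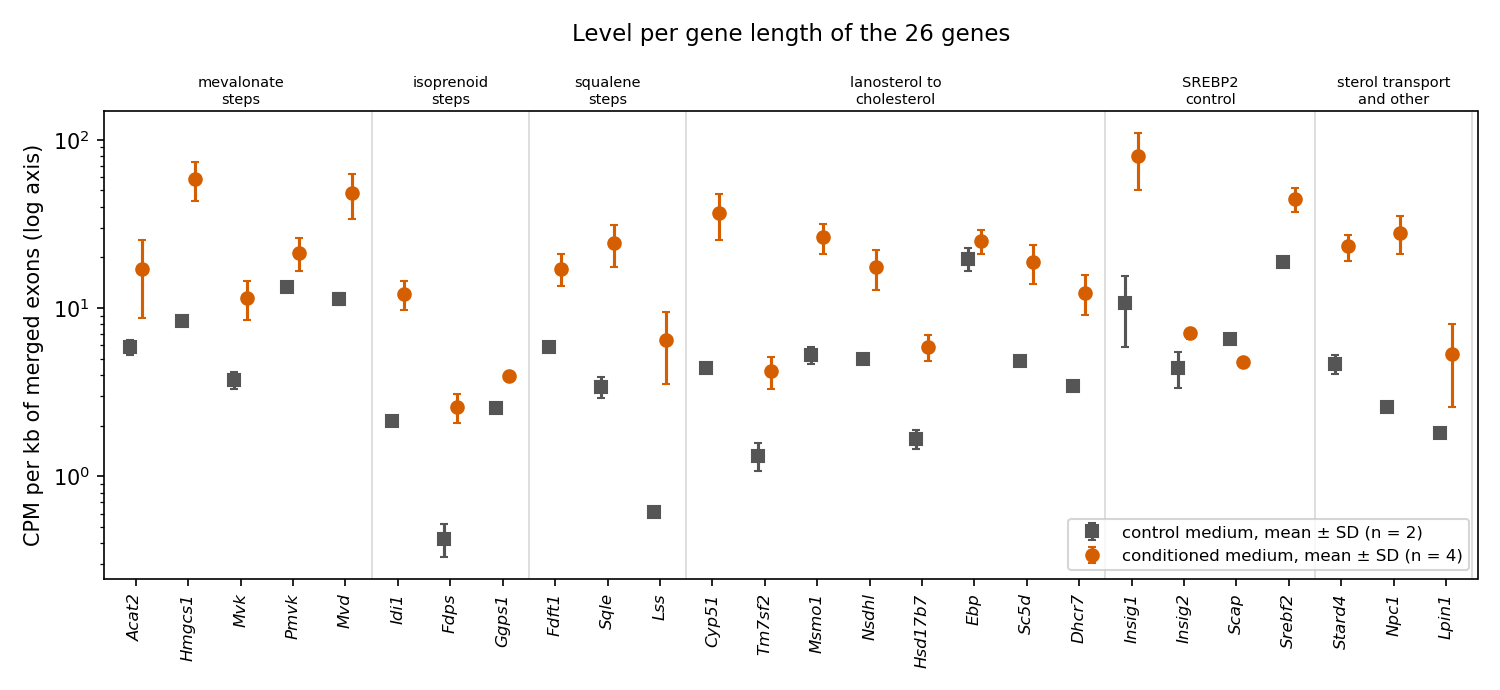
CPM per kilobase of merged exons (log axis) of the 26 genes in control medium (squares, mean ± SD, n = 2) and conditioned medium (circles, mean ± SD, n = 4). Ebp and Pmvk are among the highest in the controls and were not called, while Lss starts among the lowest.

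Lists of genes related to the pathway were read from the same fit, in which 22.5% of all genes tested were called higher and 19.7% lower. The lists are small and were not tested against these shares. Of 12 genes of sterol delivery and storage, 9 rose and 3 were not called (median log2 fold change 1.26). The largest were Lipa, the lysosomal acid lipase that frees cholesterol from its esters (52.3 and 48.6 against 922, 608, 1261 and 985 CPM, 4.22 ± 0.36), and Nceh1, a cholesteryl ester hydrolase (35.5 and 36.5 against 349.9, 252, 264 and 289.7 CPM, adjusted p = 0.00039). Soat1, which esterifies cholesterol for storage, rose from 80.8 and 94.8 to 481, 457, 406 and 618 CPM (2.48 ± 0.24, adjusted p = 0.001). Gramd1c, a gene of the sterol carriers at membrane contacts, had a log2 value of -1.10 and was not called (adjusted p = 0.083). It was called lower with upper-quartile or library-total scaling (adjusted p = 0.048 and 0.039), by voom (0.048), by DESeq2 (just under 0.05) and without VpR126 (0.02). Of 14 genes of SREBP processing and sterol-sensing turnover, 6 rose and 8 were not called (median 0.37, against 22.5% called higher over all genes). With upper-quartile or library-total scaling 4 were called higher, in the latter beside 1 lower. Among those that rose were Mbtps2, the second protease that releases SREBP (43.0 to 53.96 CPM in conditioned medium, 1.96 ± 0.20), and Sec24a, a coat protein of the vesicles that leave the endoplasmic reticulum (1.94 ± 0.17). Erlin2, a membrane protein in the turnover of sterol-regulated proteins, rose by 1.38 ± 0.19. Rnf145, a ubiquitin ligase of sterol-dependent turnover, had a log2 value of -0.05 and was not called (adjusted p = 0.87).

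In the branch that uses isoprenoids outside sterols, 4 of 14 genes rose, 2 fell and 8 were not called (median -0.16), shares near the 22.5% higher and 19.7% lower of all genes tested. With upper-quartile or library-total scaling 3 were called higher and 4 lower, without VpR99 4 and 4, and without a low-count filter 3 and 1. Pggt1b, a subunit of geranylgeranyl transferase, rose by 1.73 ± 0.18, and Nus1 and Dolk, of dolichol synthesis and phosphorylation, by 1.39 ± 0.17 and 0.99 ± 0.21. The prenyl transferase subunits Rabggtb and Fntb changed by -0.88 ± 0.17 and -0.79 ± 0.20. All 4 electron donors of sterol enzymes rose (median 1.11), among them the reductase Por (1.22 ± 0.17) and the cytochrome b5 gene Cyb5b (1.58 ± 0.20), as did the cytochrome b5 reductase Cyb5r3 (0.99 ± 0.17). Of 6 tested genes of acetyl-CoA supply and ketone bodies, 3 rose and 3 were not called, beside 22.5% called higher over all genes. Acly, the citrate lyase that makes cytosolic acetyl-CoA, Slc25a1, the citrate carrier, and Aacs, the acetoacetyl-CoA synthetase, rose by 0.92 ± 0.19, 0.99 ± 0.19 and 1.07 ± 0.30. Acss2, an acetyl-CoA synthetase known as sterol-responsive, was not called and had 19.6 and 20.5 CPM in the controls and 19.8, 12.01, 17.02 and 14.7 CPM in conditioned medium (-0.33, adjusted p = 0.26). Mmab, whose gene lies head to head with Mvk, and Pcyt2 of the same list of sterol-responsive genes rose (Mmab by 1.14 ± 0.20, and Pcyt2 from 33.6 and 40.3 to 98.2, 57.8, 64.5 and 76.9 CPM), and Tmem97 was not called (0.73, adjusted p = 0.076). Among the enzymes that oxidize sterols, 2 of 3 tested were called higher, among them Hsd3b7 (1.61 ± 0.18). Ch25h, the cholesterol 25-hydroxylase, had 1 and 0 counts in the controls and 76, 732, 10 and 8 counts in conditioned medium (2.78, 5.93, 0.422 and 0.443 CPM; adjusted p = 0.032). Its pooled CPM was 220-fold higher (exact 95% counting interval 39.4 to 8708, which covers counting error only). VpR99 supplied 732 of the 826 conditioned counts, and without it the ratio was 69.8 (12.2 to 2786), an alternative chosen after seeing the data.

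Several of these calls rested on both controls. Without control replicate 1 or 2, fewer genes of delivery and storage, SREBP processing, electron donors and the isoprenoid branch were called higher, as over all genes tested. The median log2 fold changes without replicate 1 and without replicate 2 were 1.22 and 1.32 for delivery and storage and 0.40 and 0.41 for SREBP processing. They were 1.08 and 1.15 for electron donors and -0.19 and -0.10 for the isoprenoid branch. Dolk, Fntb, Aacs, Slc25a1, Acly, Cyb5r3, Mmab, Pcyt2 and Ch25h were not called without either control, and Rabggtb not without replicate 1. For Ch25h the call was also lost without VpR83, without a low-count filter and by voom.

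**Figure D5:**
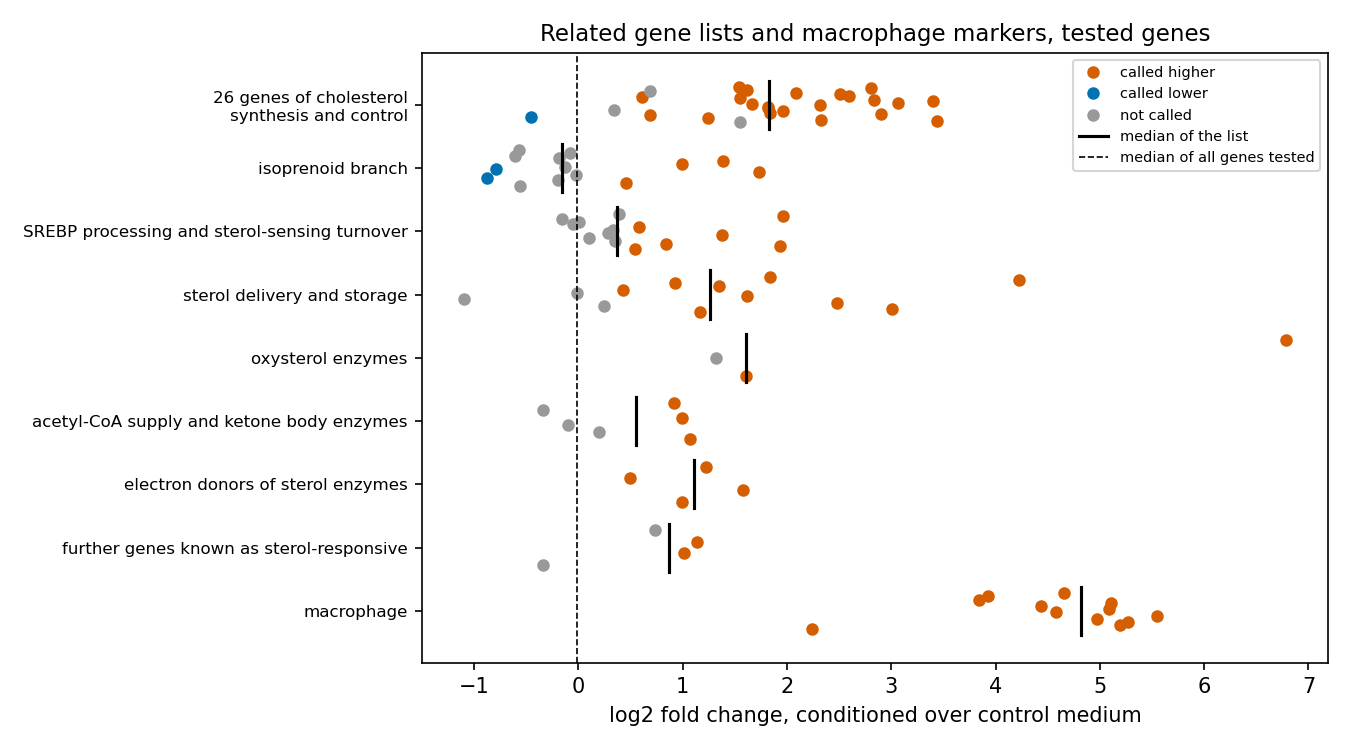
Log2 fold change of conditioned over control medium (x axis) of each tested gene in the 26 genes, in 7 related lists and in the macrophage markers, coloured by call, with a bar at each list's median and a dashed line at the median of all genes tested; height within a row only separates points. The 26 genes have a median of 1.83, between the -0.16 of the isoprenoid branch and the 4.82 of the macrophage markers.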

How the data were processed

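The authors deposited unnormalized counts, with Ensembl mouse gene identifiers as rows and the 6 marrow libraries as columns. Per the submitters' processing notes, Trimmomatic 0.38, STAR 2.5.2b and GRCm38 were used. For the counting step, the tool, strand setting and annotation are not given in the sources used. Column headers matched the sample labels. Tags of unknown meaning stand in 3 conditioned headers (Ctrl for VpR83, T1 for VpR99 and LT2 for VpR126), and control headers name no medium.

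The counts were filtered with filterByExpr, scaled by TMM and fitted with edgeR 4.0.16 (quasi-likelihood, R 4.3.3), conditioned against control medium over all 6 libraries with no covariate. Calls used a Benjamini-Hochberg adjusted p below 0.05 over all 15141 genes tested. The SE of a log2 fold change is its size divided by the square root of F. CPM are TMM-scaled, and no library pair differed by less than sampling noise. Alternatives were RLE, upper-quartile and library-total scaling, no filter, DESeq2 1.42.0, voom (limma 3.58.1), VpR99 thinned to 26581398 counts, and leaving out each library; line medians under other scalings were added after seeing the data.

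The members and lists were chosen with earlier results of these data known. Named were all 26 members and, from each related list, up to 3 called genes with the largest change and up to 2 that went against their list. One gene that this rule names is not reported here. Identifiers matched a symbol for 45143 of 45706 genes. Gene coordinates are from the GRCm38 annotation and promoters from RefSeq (GRCm38.p6).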

Additional observations from a re-analysis of the deposited data

How the results depend on the processing

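None of the 26 genes changed direction under any alternative run, and the median log2 fold change of the 26 stayed between 1.59 and 1.95. The calls of 14 genes (Hmgcs1, Idi1, Fdps, Fdft1, Sqle, Lss, Cyp51, Msmo1, Nsdhl, Hsd17b7, Sc5d, Dhcr7, Stard4 and Npc1) held under each. Of the 9 others called, Mvk, Mvd, Tm7sf2, Insig1 and Srebf2 lost the call only when a control was left out. Over all genes, leaving out 1 library gave 2201 to 7031 calls against 6393 with all 6 libraries, with 2201 without control replicate 1 and 2290 without control replicate 2. With 2 controls, the spread of the control group rests on 1 difference between libraries. No paired analysis was possible because the 2 controls and the 4 lines share no replicate numbers in the labels.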

Other observations

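Among the 26 genes, 25 had controls within 0.5 log2 units of each other, a share that was not counted over all genes tested. The exception was Insig1, the sterol-regulated INSIG gene, with 43.8 and 22.6 CPM in control replicates 1 and 2. Per exon length, the ratio of Srebf2 to Scap was 2.95 and 2.83 in the controls and 11.4, 9.87, 8.10 and 7.97 under VpR83, VpR99, VpR126 and VpR2020. The ratio of Fdft1, which commits farnesyl diphosphate to sterols, to Ggps1, which draws it to prenylation, was 2.15 and 2.44 in the controls and 5.83, 3.76, 3.12 and 5.02 in the conditioned libraries. Both ratios were chosen with the values of these genes known and are given without a test. Fdft1 shares exon with Ctsb on the opposite strand, and the part of Ctsb reads in its counts was not tested. Reads of Fdft1 and Ggps1 may also be split with their pseudogenes.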
